A study of Mus musculus with 2 samples.

Results

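The 10 genes described here are Atf4 and 9 genes of the amino acid response that its product controls or is linked to: Ddit3, Trib3, Chac1, Sesn2, Asns, Phgdh, Psat1, Shmt2 and Slc7a11. They were taken as every probe set that the platform annotation assigns to exactly 1 gene symbol among these names, which gave 24 probe sets for all 10 genes, of the 18193 genes represented on the array. The series holds 2 Affymetrix arrays of mouse whole embryos at 8.5 days post coitum, 1 for matUPD18, offspring whose chromosomes 18 both came from the mother (maternal uniparental disomy), and 1 for patUPD18, in which both came from the father (paternal uniparental disomy). The labels give the same age and tissue for both arrays, and whether the collected tissue was matched more closely is not stated. No embryo with 1 copy of chromosome 18 from each parent was analysed here. How many embryos gave each RNA is not stated in the sources used here. With 1 array per genotype no difference below has a replicate check, no test was possible, and the number of arrays limits the precision of every value. None of the 10 genes lies on chromosome 18: they are on chromosomes 2, 3, 4, 6, 10, 15 and 19, for which the labels name no disomy.

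When a cell runs short of amino acids, uncharged tRNA activates the kinase GCN2 (Eif2ak4), which phosphorylates the translation initiation factor eIF2. General protein synthesis then slows while translation of ATF4, a basic leucine zipper transcription factor, increases, so ATF4 protein is set largely at translation and its mRNA is an incomplete guide to it. ATF4 binds C/EBP-ATF response elements near genes for amino acid synthesis, amino acid import and tRNA charging, and near regulators that feed back on the response. Impact, an imprinted gene expressed from the paternal copy, encodes an inhibitor of GCN2 activation.

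The promoters of 4 of the 10 genes contained the core of this element, searched as TGATGNAA on both strands in the window from 250 bases before to 50 bases after each annotated start (RefSeq sequences, GRCm38.p6). The matches are shown because they mark which of these genes carry the recognised letters close to the start. Each line is written 5′ to 3′ on the gene's own strand, with the matched letters in capitals; TTNCATCA is the same motif on the opposite strand.
Asns, chr6:7693215-7693242, minus strand: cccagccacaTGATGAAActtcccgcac
Chac1, chr2:119351039-119351066, plus strand: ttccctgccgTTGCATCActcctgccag
Slc7a11, chr3:50443643-50443689, minus strand: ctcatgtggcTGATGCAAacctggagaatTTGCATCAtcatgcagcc
Trib3, chr2:152344029-152344056, minus strand: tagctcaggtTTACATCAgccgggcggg

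The match began 23 bases before the start in Asns and 193 bases before it in Chac1. Slc7a11 held 2 matches on opposite strands, beginning 66 and 47 bases before the start, and the Trib3 match began at base 15 of the transcribed sequence. No match lay within the window of Atf4, Ddit3, Sesn2, Psat1, Phgdh or Shmt2, which says only that these letters are not in that window. Of 27025 genes in the promoter table, 1219 (4.51%) held the motif in at least 1 window. These matches are a description of sequence and were not measured as bound sites.

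Values are MAS5 signals, which summarise the probes of a probe set on a linear scale. Ratios are log2 of matUPD18 over patUPD18, so a negative value means lower in matUPD18. Before taking log2, signals under an array's 40th percentile were raised to it (the floor, 84.2 for matUPD18 and 82.5 for patUPD18). A probe set counted as measurable if its larger signal was at or over that array's 60th percentile (190.1 for matUPD18, 184.9 for patUPD18). Of the 24 probe sets 18 were measurable, covering 9 genes; both Slc7a11 probe sets were not. Of the 18, 15 reached the limit on both arrays and 3 reached it on the patUPD18 array alone, namely those that carry the values of Ddit3 and Trib3 and 1 of Shmt2. A probe set that passes only through 1 array is higher there by construction, so counts over the measurable genes are given as description only.

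By its brightest probe set, each of the 9 measurable genes read lower on the matUPD18 array, and of the 18 measurable probe sets 16 did so and 2 read higher there. The differences were small: 8 of the 9 were within 2-fold, and 6 had a log2 ratio between -0.43 and -0.06. Only Ddit3 was at least 2-fold lower in matUPD18, as were 187 of the 10483 measurable genes (1.78%). In the other direction, 2-fold or more higher in matUPD18, there were 0 of the 9, against 2.7% of all measurable genes. At 1.5-fold, Ddit3, Shmt2 and Trib3 were lower in matUPD18, as were 8.74% of all measurable genes, and at 3-fold none was, as were 0.267%. The median log2 ratio was -0.36 over the 9 genes and -0.04 over all measurable genes, of which 53.9% read lower in matUPD18. The log2 ratios of a gene's measurable probe sets scattered with a standard deviation of 0.44, pooled over 4003 genes with 10206 such probe sets. That spread, which leaves out differences between embryos, is larger than the ratios of 6 of the 9 genes.

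**Figure D1:**
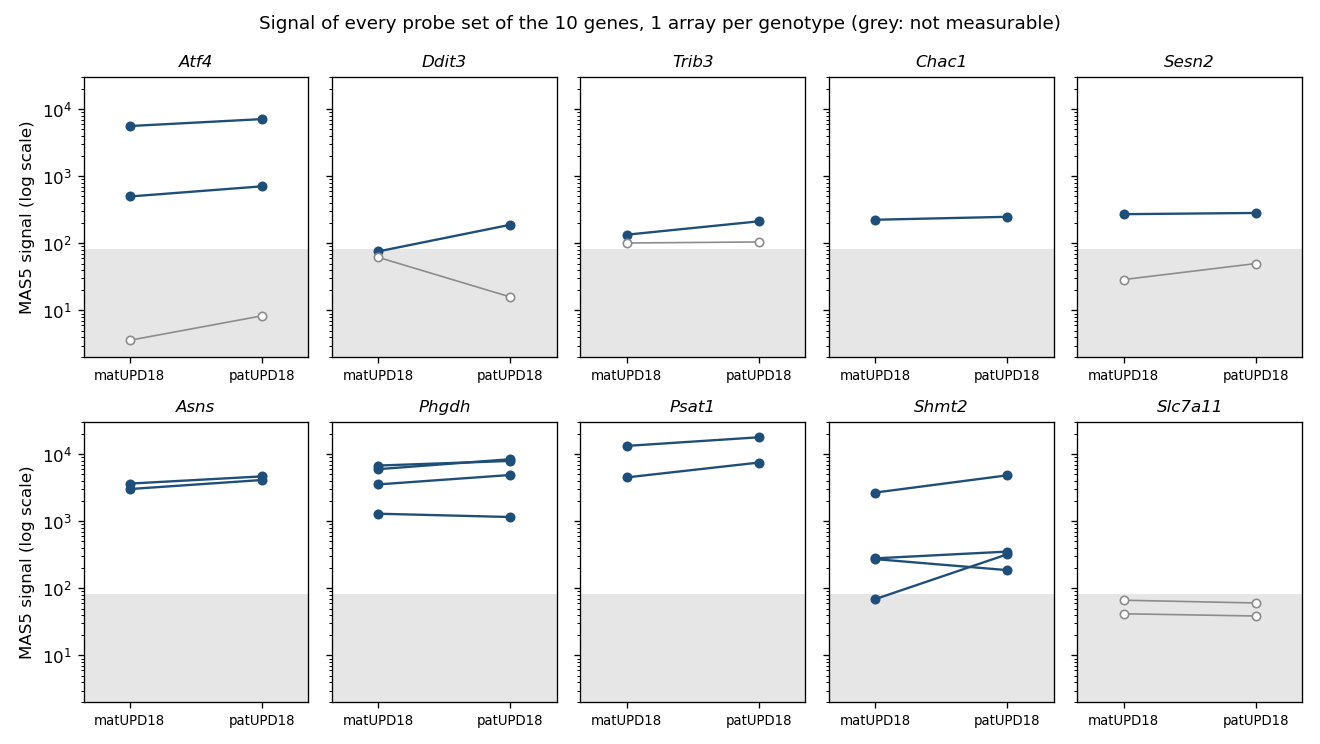
MAS5 signal (log scale) of each of the 24 probe sets on the matUPD18 array (left of each panel) and the patUPD18 array (right), 1 panel per gene, with a line joining the 2 values of a probe set. Filled blue points are measurable probe sets, open grey points are not, and the grey band lies under the floor; most blue lines slope gently up to patUPD18, and both Slc7a11 lines lie in the band.

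Atf4, the central transcription factor, was read by 3 probe sets. The brightest gave 5611 in matUPD18 and 7118 in patUPD18 (log2 ratio -0.34), and the next gave 499.9 in matUPD18 and 708 in patUPD18 (log2 ratio -0.50). The remaining probe set gave 3.59 in matUPD18 and 8.31 in patUPD18, far under the floor, and gives no ratio. Both measurable probe sets were thus lower in matUPD18 by similar amounts. Of the 500 genes closest to Atf4 in mean signal, 109 (21.8%) had a ratio as low or lower.

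Ddit3 encodes CHOP, a transcription factor of the C/EBP family that ATF4 induces under prolonged stress. Its measurable probe set gave 75.9 in matUPD18, under the floor, and 189.6 in patUPD18, just over the limit of 184.9. With the floor applied it was at least 2.25-fold lower in matUPD18 (log2 ratio -1.17). The other Ddit3 probe set went the other way at lower signals, with 61.9 in matUPD18 and 15.9 in patUPD18, both under the floor. Among the 500 genes of closest mean signal 26.6% were at least 2-fold apart in either direction, and 52 (10.4%) had a ratio as low as that of Ddit3. In this signal range a gene is measurable only if its arrays differ, as the plot of ratio against signal shows at its left edge.

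Trib3, a pseudokinase that binds ATF4 and CHOP and restrains the response, read 135 in matUPD18 and 213 in patUPD18 by its measurable probe set (log2 ratio -0.66). Its other probe set read nearly the same on both arrays, 101 in matUPD18 and 105 in patUPD18. The measurable value is again from a probe set that reached the limit in patUPD18 alone.

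Chac1, a cytosolic enzyme that breaks down glutathione, had 1 probe set, with a signal of 225 in matUPD18 and 249 in patUPD18 (log2 ratio -0.15). Sesn2, a leucine-binding regulator of the growth kinase complex mTORC1, read 272 in matUPD18 and 284 in patUPD18 (log2 ratio -0.06). The second Sesn2 probe set gave 28.9 in matUPD18 and 50.0 in patUPD18, both under the floor. The arrays differed by 1.11-fold for Chac1 and by 1.04-fold for Sesn2, less than the spread between probe sets of a gene.

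Asns, asparagine synthetase, is the classical target through which amino acid control of transcription was studied. Its brightest probe set gave 3647 in matUPD18 and 4669.6 in patUPD18 (log2 ratio -0.36), and the other 3025 in matUPD18 and 4124 in patUPD18 (log2 ratio -0.45). The 2 probe sets were close in ratio, and 18.6% of the 500 genes nearest in signal had a ratio as low as that of the brightest.

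Phgdh, Psat1 and Shmt2 act in serine and glycine synthesis: Phgdh catalyses the first committed step, Psat1 the transamination that follows, and Shmt2 converts serine to glycine in mitochondria while supplying one-carbon units. The brightest Phgdh probe set gave 6778 in matUPD18 and 7936 in patUPD18 (log2 ratio -0.23). Of its other probe sets, 1 read 5987 in matUPD18 and 8423 in patUPD18 (log2 ratio -0.49) and 1 read 3547 in matUPD18 and 4902 in patUPD18 (log2 ratio -0.47). The fourth was slightly higher in matUPD18, with 1296 against 1158 in patUPD18 (log2 ratio 0.16). All 4 are of the type that can match several similar transcripts, as the ending of their names states.

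Psat1 read 13300.2 in matUPD18 and 17884 in patUPD18 by its brightest probe set (log2 ratio -0.43). The other read 4513 in matUPD18 and 7506 in patUPD18, a larger difference (log2 ratio -0.73). Both were lower in matUPD18. The genes nearest to the brighter one in signal had a median log2 ratio of -0.27 themselves, since ratios of the brightest genes on this pair of arrays lay below 0 as a group.

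Shmt2 had the smallest share of like-signal genes with a ratio as low as its own. Its brightest probe set gave 2680.3 in matUPD18 and 4845 in patUPD18, 1.81-fold lower in matUPD18 (log2 ratio -0.85). Only 13 of the 500 genes closest in mean signal (2.6%) had a ratio as low or lower, and their quartiles were -0.27 and 0.25. The 3 dimmer probe sets did not give the same size. The second read 280.1 in matUPD18 and 354 in patUPD18 (log2 ratio -0.34). The third read 69.1 in matUPD18, under the floor, and 322 in patUPD18, at least 3.83-fold lower in matUPD18 (log2 ratio -1.94), as 1.95% of all measurable probe sets were at least 2-fold lower. The fourth was higher in matUPD18, with 273 against 187 in patUPD18 (log2 ratio 0.55), and it is the only Shmt2 probe set whose name carries no mark of possible matches to other transcripts. The 4 probe sets of this gene therefore disagreed in size and in direction.

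Slc7a11, the cystine and glutamate exchanger that imports the precursor of glutathione, read 66.6 in matUPD18 and 60.5 in patUPD18 by its brighter probe set and 41.8 in matUPD18 and 38.7 in patUPD18 by the other. All 4 signals lay under the floor, so no ratio is given. Its promoter carries 2 of the matches printed above, and its signal was not separable from the low range of either array.

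**Figure D2:**
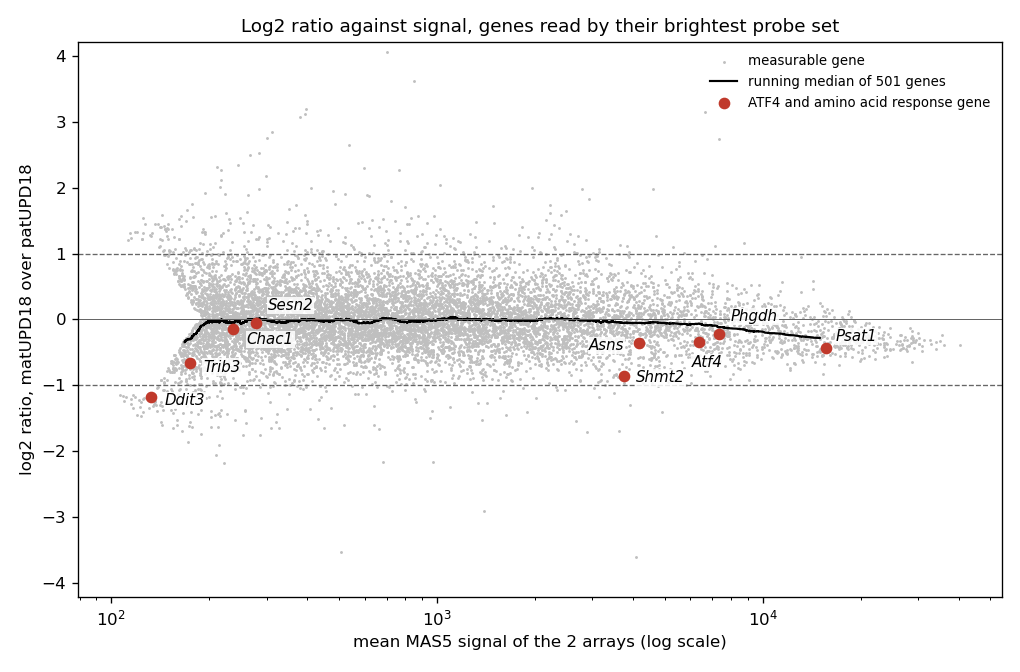
Log2 ratio of matUPD18 over patUPD18 against mean MAS5 signal (log scale) for the 10483 measurable genes (grey), each read by its brightest probe set, with the running median of 501 genes (black) and dashed lines at 2-fold. The 9 measurable ATF4 and amino acid response genes (red) lie below 0, and below the running median wherever it is drawn. At the signal of Ddit3, near the dim end, the running median is not drawn. Shmt2 lies furthest below it among the brighter red genes. Ddit3 and Trib3 lie at the dim left edge, where genes near a ratio of 0 are not measurable.

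The direction of these small ratios rests on the scaling. The 9 bacterial and phage hybridisation controls read lower on the matUPD18 array, with a median log2 ratio of -0.50 (range -0.75 to -0.41). With the arrays scaled so that these controls are equal, the median of all measurable genes was 0.47 in place of -0.04, and 6 of the 9 genes read higher in matUPD18: Atf4 (0.16), Asns (0.15), Chac1 (0.36), Sesn2 (0.44), Phgdh (0.27) and Psat1 (0.07). Ddit3 (-0.67), Shmt2 (-0.35) and Trib3 (-0.16) read lower there. Under the deposited scaling Ddit3 and Trib3 reached the limit in patUPD18 alone, and the probe sets of Shmt2 disagreed in direction. The median of the 9 genes minus that of all measurable genes was -0.31 under the deposited scaling. It was -0.22 after quantile normalization and -0.20 after loess scaling. With the controls set equal it was -0.33, but that scaling shifts all genes by nearly the same amount. The value under the controls is therefore no separate check of the difference.

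**Figure D3:**
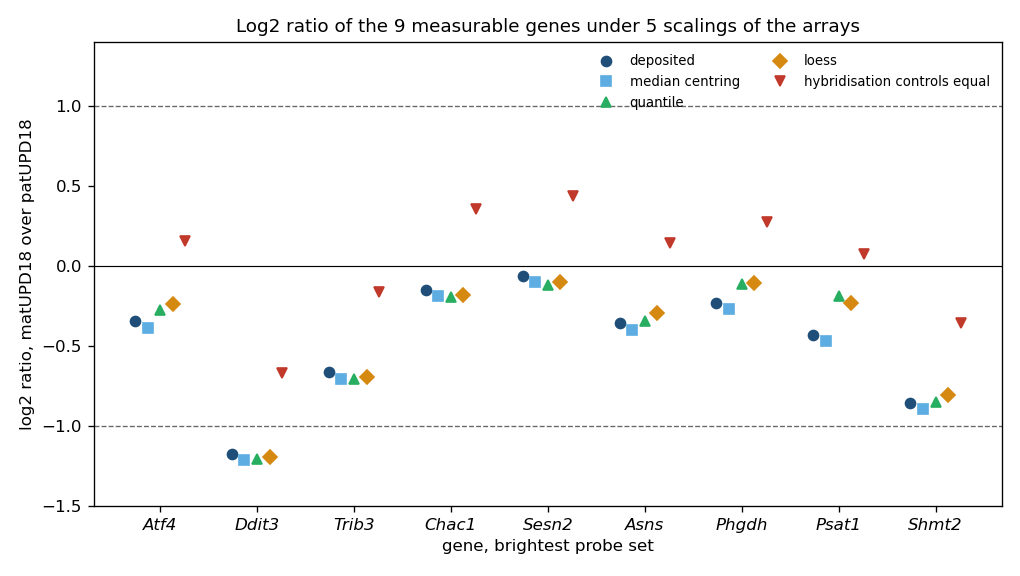
Log2 ratio of matUPD18 over patUPD18 of the 9 measurable genes, read by the brightest probe set, under the deposited scaling and 4 other scalings of the arrays, with dashed lines at 2-fold. The first 4 symbols of each gene lie below 0 and close together, and setting the hybridisation controls equal (red) moves every gene up, 6 of them above 0.

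The wider pathway was read from gene lists chosen with earlier results of these data known, and directions are those under the deposited scaling. With the hybridisation controls set equal the medians of all 8 lists were above 0, from 0.04 to 0.53. For the counts below, 53.9% of all measurable genes read lower in matUPD18 under the deposited scaling. In serine, glycine and one-carbon metabolism, 11 of 14 measurable genes read lower in matUPD18 and the median log2 ratio was -0.21, or -0.12 over the 11 that are not among the 10 genes. Without probe sets marked as matching several transcripts the list's median was 0.05, its direction turned. The only one past 2-fold was Aldh1l1, a folate dehydrogenase, which read 82.9 in matUPD18, under the floor, and 201 in patUPD18. It was at least 2.39-fold lower in matUPD18, where 1.78% of all measurable genes were at least 2-fold lower. Aldh1l1 reached the limit in patUPD18 alone, so its direction is by construction. Mthfd2l, a mitochondrial folate enzyme, was the furthest in the other direction, with 2539.9 in matUPD18 and 2154 in patUPD18 (log2 ratio 0.24), while 1 of its 3 other measurable probe sets was slightly below 0. Among other enzymes of amino acid synthesis, 9 of 11 read lower in matUPD18 (median -0.20) and none passed 2-fold. Glul, glutamine synthetase, was the lowest, with 1028 in matUPD18 and 1642 in patUPD18 (log2 ratio -0.68), but its other measurable probe set was at 0.34. Got1, a cytosolic aspartate transaminase, was the highest at 409 in matUPD18 and 341 in patUPD18 (log2 ratio 0.26).

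Cytosolic aminoacyl-tRNA synthetases, which charge tRNAs with amino acids, had a median of -0.24, with 13 of 18 lower in matUPD18 and all within 2-fold. Farsa read 260.02 in matUPD18 and 377 in patUPD18 (log2 ratio -0.53), with its other measurable probe set at 0.72, and Tars read 1316 in matUPD18 and 796 in patUPD18 (log2 ratio 0.73). Of the 13 synthetase genes in the promoter table, 5 held the motif, as did 4.51% of all genes there. The windows of 4 are shown for comparison with those above.
Gars, chr6:55037961-55037988, plus strand: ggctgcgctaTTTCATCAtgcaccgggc
Iars, chr13:49682127-49682154, plus strand: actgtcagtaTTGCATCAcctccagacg
Tars, chr15:11399656-11399683, minus strand: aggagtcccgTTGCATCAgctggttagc
Yars, chr4:129189896-129189923, plus strand: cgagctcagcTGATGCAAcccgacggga

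Among these 4 genes, named after their values were seen, Gars was at a log2 ratio of -0.38, Iars at -0.21, Yars at 0.04 and Tars at 0.73. Among the 4 of the 10 genes with a match, Asns, Chac1 and Trib3 were measurable, at -0.36, -0.15 and -0.66.

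Amino acid transporters did not share the lower reading. Of 12 measurable, 7 read higher in matUPD18, with a median of 0.03 (-0.0088 after median centring and -0.0018 after quantile normalization) and none past 2-fold. Slc38a2, a neutral amino acid transporter of System A that amino acid shortage induces, was the highest, with 8784 in matUPD18 and 4669 in patUPD18 (log2 ratio 0.91), the opposite direction to Asns. Of its 2 other measurable probe sets 1 was at 0.78 and 1 at -0.26. Slc7a1, a cationic amino acid transporter, was the lowest at 1760.5 in matUPD18 and 2106 in patUPD18 (log2 ratio -0.26).

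Among stress regulators of the integrated stress response, 13 of 18 measurable genes read lower in matUPD18, against 53.9% of all measurable genes. Ddit3, Trib3, Jdp2 and Pck2 reached the limit in patUPD18 alone, so their lower reading in matUPD18 is by construction. The median of the list was -0.13, or -0.02 over the 13 that are not among the 10 genes. Jdp2, a basic leucine zipper repressor, was the lowest of those, with 156 in matUPD18 and 290.01 in patUPD18 (log2 ratio -0.90). Vldlr, a lipoprotein receptor, was the highest, with 404 in matUPD18 and 234 in patUPD18 (log2 ratio 0.79). The 2 other measurable probe sets of Vldlr were at 0.11 and 0.55. Chaperones and regulators of the endoplasmic reticulum, which respond to misfolded protein largely through other transcription factors, were split, with 10 of 19 higher in matUPD18 and a median of 0.02 (-0.02 after median centring, and -0.08 without probe sets marked as matching several transcripts). In that list Calr, a calcium-binding chaperone, read 11564 in matUPD18 and 15907 in patUPD18 (log2 ratio -0.46). Dnajc3, a co-chaperone that inhibits an eIF2 kinase, read 2037 in matUPD18 and 1034 in patUPD18 (log2 ratio 0.98). The 2 other measurable probe sets of Dnajc3 were at -0.02 and 0.56.

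Upstream of ATF4, the eIF2 kinases and translation factors had a median of -0.09, with 8 of 13 lower in matUPD18. Impact was the only one past 2-fold, with 328 in matUPD18 and 2466 in patUPD18 by its brightest probe set (log2 ratio -2.91) and 268 in matUPD18 and 205 in patUPD18 by its other measurable one. Eif2ak3, the endoplasmic reticulum eIF2 kinase PERK, was the furthest in the other direction, with 936 in matUPD18 and 556 in patUPD18 (log2 ratio 0.75).

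**Figure D4:**
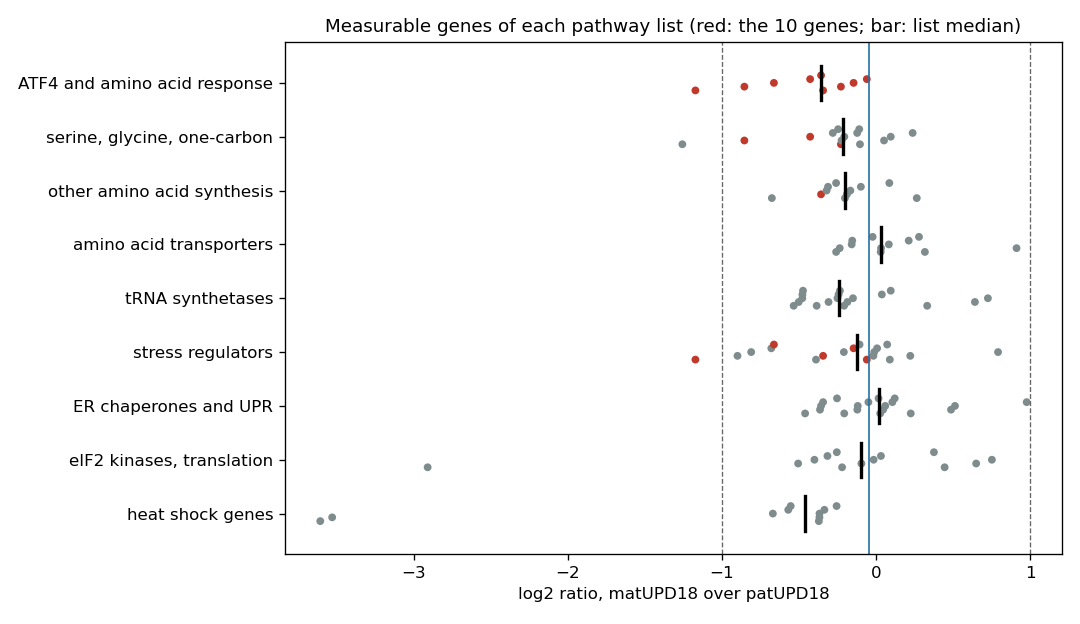
Log2 ratio of matUPD18 over patUPD18 of each measurable gene of the 10 genes (top row) and of 8 pathway lists, read by the brightest probe set; red points are the 10 genes, black bars are list medians, the blue line is the median of all measurable genes (-0.04) and dashed lines are at 2-fold. Lists of synthesis enzymes, tRNA synthetases and heat shock genes have medians left of the blue line, and transporters and endoplasmic reticulum chaperones lie close to it.

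Transcripts that mark tissues, and heat shock transcripts, also differed between the same arrays. All 8 neural tube markers and 7 of 8 heart markers were measurable, the exception being Nkx2-5, a cardiac transcription factor gene, at 147 in matUPD18 and 144 in patUPD18. Of the neural markers 6 read higher in matUPD18 and 2 lower (median log2 ratio 0.25), with Hes5, a Notch target gene, past 2-fold at 2199 in matUPD18 and 4777 in patUPD18. Of the heart markers 4 read higher in matUPD18 and 3 lower (median 0.04), all within 2-fold. Of 6 measurable paraxial mesoderm markers 2 read higher and 4 lower (median -0.38). Of these Msgn1 was past 2-fold, at 66.8 in matUPD18, under the floor, and 208 in patUPD18. Msgn1 reached the limit in patUPD18 alone, so its direction is by construction. Of 3 measurable trophoblast markers 2 read higher, Hand1 and Plac1, and 1 lower (median 0.50). Tpbpa and Elf5 were not measurable, and Prl3d1, Gcm1 and Prl2c2 were not read by a probe set with exactly 1 gene symbol. The lower one, Cdx2, was past 2-fold, at 218 in matUPD18 and 681 in patUPD18. All 12 visceral endoderm markers read higher in matUPD18, summing to a signal of 36235 in matUPD18 against 6366 in patUPD18, and all 9 measurable markers of primitive red cells read lower there, with sums of 46292 in matUPD18 and 71322 in patUPD18. In patUPD18 the endoderm markers Apoa1 (43.5), Apom (36.7), Cldn2 (71.2) and Cubn (70.5) lay under the floor of 82.5. The other endoderm markers lay over it. Apoa1, Apom, Cldn2, Cubn, Spink1, Amn and Apob reached the measurable limit in matUPD18 alone, so their direction is by construction. Sox17 differed least of the endoderm markers (log2 ratio 0.12), and the other measurable probe set of Hnf4a was at -0.24. Among the red cell markers Gata1 reached the limit in patUPD18 alone, so its direction is by construction too. All 10 measurable heat shock genes read lower in matUPD18, with a median of -0.46 and 2 past 2-fold: Hspa1b, at 619 in matUPD18 and 7529 in patUPD18, and Hspa1a, its near-identical copy, at 43.5 in matUPD18, under the floor, and 971 in patUPD18. Hspa1a reached the limit in patUPD18 alone, and 1.78% of all measurable genes were at least 2-fold lower in matUPD18. The median of the heat shock genes was 0.04 with the hybridisation controls set equal. In such bulk RNA fewer cells of a type and less RNA per cell cannot be told apart, and the part of these differences in the ratios of the 10 genes was not tested.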

How the data were processed

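Per the labels' protocols, RNA was amplified (RiboAmp) and biotin-labelled, which favours the 3′ ends of transcripts. The 3′ over 5′ signal of Gapdh was 33.95 in matUPD18 and 36.4 in patUPD18. That of Actb was 35.7 in matUPD18 and 39.3 in patUPD18. The parts of amplification and of RNA quality in these ratios were not tested. The authors deposited linear signal intensities, 1 for each probe set on each array; the submitters' processing notes name MAS5 and GCOS, with no version. The 2% trimmed mean was 500.003 in matUPD18 and 500.004 in patUPD18, which shows a common scaling target. Of 45101 probe sets 34958 had exactly 1 gene symbol; symbols were updated through the Entrez identifier where the RefSeq table (GRCm38.p6) held it. The probe set with the largest mean of both signals stood for a gene. With 1 array per genotype nothing was tested, and called means 2-fold apart. The genes and lists were chosen with earlier results of these data known. All probe sets of the 10 genes are named, as are Impact, every gene of the pathway lists past 2-fold, and the furthest gene in each direction of each of them; in the heat shock list no gene read higher in matUPD18. Other named genes were chosen after their values were seen, and the fifth motif-bearing synthetase is not reported here. Alternatives were other scalings, floors, limits, fold thresholds and probe set rules. With 2 arrays no likeness of patterns between genes was computed. The script was checked on simulated data. Tools were statsmodels 0.14.6 (loess, span 0.3), pandas 2.3.3 and numpy 2.4.6 under Python 3.11.15.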

Additional observations from a re-analysis of the deposited data

How the results depend on the processing

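The count of genes at least 2-fold lower in matUPD18 was 1 (Ddit3). It was 0 under a floor at the 60th percentile, with the measurable limit at the 70th percentile (which left 5 genes), with the hybridisation controls set equal and at a 3-fold threshold (background 0.267%), and 3 at a 1.5-fold threshold (background 8.74%). The floor at the 60th percentile raised Ddit3 in matUPD18 to 190.1, which put its log2 ratio at 0.0043 by construction. The median of the genes was 0.15 with the controls set equal, and between -0.42 and -0.23 in the other 10 alternatives run on it. Without probe sets marked as matching several transcripts, 6 genes remained measurable and Shmt2 read 0.55, its direction turned. The count of genes 2-fold higher in matUPD18 was 0 in every alternative. No paired analysis was possible because each genotype has 1 array. Signals under the floor limit Slc7a11 and Ddit3, and Trib3 reached the measurable limit in patUPD18 alone.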

Other observations

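A further 2 probe sets list Phgdh together with another locus and were left out because they do not name 1 gene. The probe set listed for Gm8096 and Phgdh read 341 in matUPD18 and 257 in patUPD18 (log2 ratio 0.41). The probe set listed for Gm6756 and Phgdh read 2849 in matUPD18 and 3666 in patUPD18 (log2 ratio -0.36).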
